A study of Mus musculus with 2 samples.

Results

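The HoxB cluster is a group of 10 homeobox genes on mouse chromosome 11, and its CpG methylation was compared between Dnmt1+/+ and Dnmt1-/- MEFs. The CpGs were taken by position: every measured CpG with a deposited start from 96050000 to 96235000 on chromosome 11 of mm9 (NCBIM37). This interval held 956 of the 1790826 measured CpGs. It runs from Hoxb13 through Hoxb9, Hoxb8, Hoxb7, Hoxb6, Hoxb5, Hoxb4, Hoxb3 and Hoxb2 to Hoxb1, and all 10 genes are transcribed from the + strand in this order.

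Methylation was measured by reduced-representation bisulfite sequencing (RRBS), in which restriction fragments are bisulfite treated and sequenced, and the percent of calls read as methylated is given for each CpG. Dnmt1-/- MEFs, fibroblasts derived from mouse embryos, carry on both chromosomes an allele (n) that lowers the function of Dnmt1, the gene for the maintenance methyltransferase that copies methylation to the daughter strand. Both lines also carry a homozygous null trp53, so that the Dnmt1+/+ control is a trp53-/- line. Each genotype had 1 library from 1 cell line, so any difference between lines, cultures or libraries cannot be told apart from the genotype, and no comparison has a replicate check. The embryos' age and strain are not given in the sources used here. RRBS of DNA offers no marker genes by which the fibroblast label could be tested. Over the whole table the mean of CpGs outside enzyme sites dropped by 29.9 points in Dnmt1-/- MEFs.

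Hox genes encode transcription factors that give cells their position along the body axis. They lie in clusters in which gene order follows the axis, with the genes at the Hoxb1 end used furthest towards the head and those at the Hoxb13 end furthest towards the tail. Each codes for a homeodomain, the DNA-binding fold, from the homeobox in the last coding exon. The clusters are dense in CpGs that are mostly unmethylated in normal tissues, and where silent they are classic targets of Polycomb proteins.

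CpGs inside CCGG or TCGA, the recognition sequences of MspI and TaqI, read higher than other CpGs in both libraries as a class. In the HoxB cluster 304 such CpGs averaged 58.0% in Dnmt1+/+ and 57.7% in Dnmt1-/- MEFs. The remaining 652 CpGs, called non-site CpGs from here on, averaged 12.7% and 21.5%, and levels below refer to them unless stated. Means count each CpG once. Intervals are 95% Wilson intervals on pooled calls and cover at most counting error. PCR copies cannot be told from separate molecules when reads carry no molecular identifiers. The intervals also treat calls of neighbouring CpGs as independent, and may be too narrow where CpGs share fragments.

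Examples of stretches with large differences, 3 coding and 1 intronic, are shown first, as the + strand of NCBIM37, 5′ to 3′, with the CG of each measured non-site CpG in capitals. The first 3 are from the exons that hold the homeobox of Hoxb6 (chr11:96162070-96162150), Hoxb5 (chr11:96166159-96166368, starting in the intron) and Hoxb3 (chr11:96206958-96207129), where methylation was far higher in Dnmt1-/- MEFs.
Hoxb6: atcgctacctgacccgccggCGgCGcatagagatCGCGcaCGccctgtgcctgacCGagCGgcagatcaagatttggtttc
Hoxb5: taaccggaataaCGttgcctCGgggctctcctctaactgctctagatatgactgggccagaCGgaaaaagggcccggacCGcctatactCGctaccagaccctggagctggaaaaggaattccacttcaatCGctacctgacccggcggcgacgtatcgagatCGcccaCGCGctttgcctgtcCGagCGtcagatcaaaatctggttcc
Hoxb3: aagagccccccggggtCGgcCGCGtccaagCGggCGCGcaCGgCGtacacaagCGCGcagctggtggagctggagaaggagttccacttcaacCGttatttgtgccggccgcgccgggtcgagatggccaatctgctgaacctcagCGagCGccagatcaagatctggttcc
The next is intronic in the longer transcripts of Hoxb3 (chr11:96194036-96194300) and holds the largest number of consecutively called CpGs in 1 intron of the cluster.
Hoxb3 intron: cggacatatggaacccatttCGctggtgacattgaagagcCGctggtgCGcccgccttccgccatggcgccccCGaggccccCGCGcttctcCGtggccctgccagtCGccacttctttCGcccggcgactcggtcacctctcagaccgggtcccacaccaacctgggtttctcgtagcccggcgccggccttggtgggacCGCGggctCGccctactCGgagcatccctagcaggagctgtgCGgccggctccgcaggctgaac

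In the Hoxb6 stretch the 7 CpGs in capitals lay between 3.57 and 13.1% in Dnmt1+/+ MEFs, and between 54.3 and 84.4% in Dnmt1-/- MEFs. The Hoxb5 stretch had 11 CpGs that averaged 14.04% and 67.2%, with 10 of them called higher. In the Hoxb3 exon 13 CpGs averaged 10.3% and 69.9%, and 12 were called higher. The first CpG in capitals of both the Hoxb5 and Hoxb3 stretches was the one not called, at 5.45% against 19.4% and at 8.20% against 18.2%. All 14 CpGs of the Hoxb3 intron stretch were called higher, from a range of 0 to 9.52% in Dnmt1+/+ to a range of 36.4 to 84.0% in Dnmt1-/- MEFs.

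**Figure D1:**
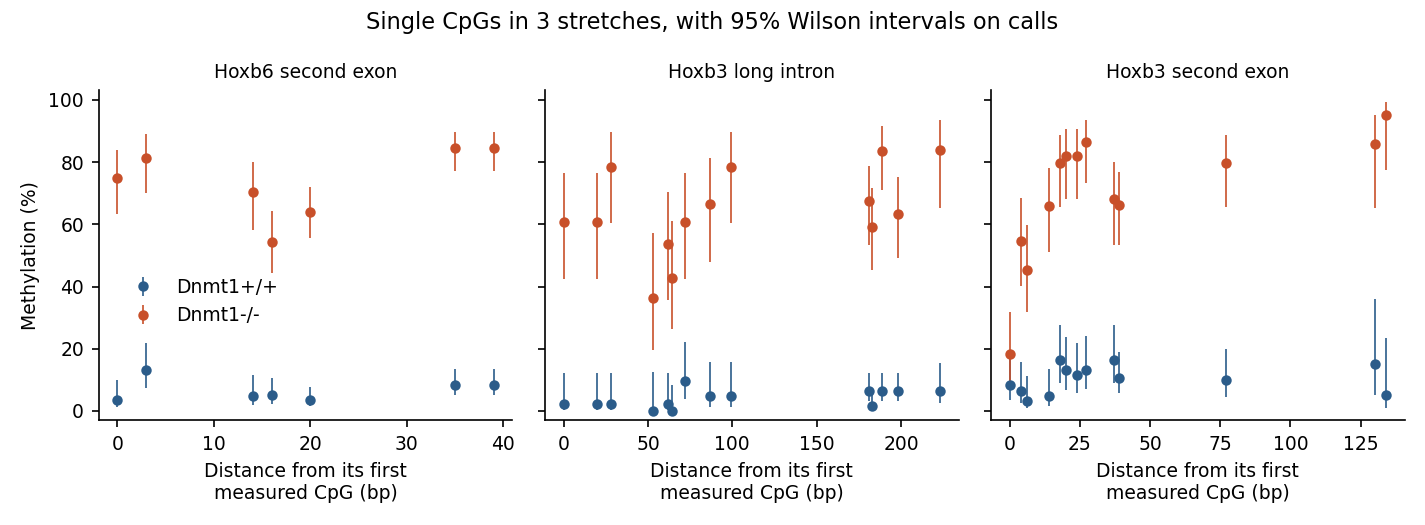
Methylation of single non-site CpGs (y axis, %) against the distance from the first measured CpG of the stretch (x axis, bp) in the Hoxb6 second exon, the Hoxb3 intron and the Hoxb3 second exon. Blue points are Dnmt1+/+, orange points Dnmt1-/-, and bars are 95% Wilson intervals on the calls of each CpG. In the Hoxb3 intron every Dnmt1-/- point lies at 36.4% or more and every Dnmt1+/+ point at 9.52% or less.

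A CpG was called higher or lower in Dnmt1-/- MEFs when the 2 libraries' calls differed in Fisher's exact test (two-sided) at an adjusted p under 0.05, with adjustment over all CpGs of the table. This test compares the libraries, not the genotypes. Of the 652 non-site CpGs of the cluster, 189 were called higher (29.0%) against 0.635% of the non-site CpGs of the table, and 79 were called lower (12.1%) against 44.2%. Over all 956 CpGs the counts were 218 higher and 97 lower, against 0.462% and 43.7% of the table. Median depth at the non-site CpGs was 44 calls in Dnmt1+/+ and 36 in Dnmt1-/- MEFs, out of 37225 and 33285 calls in all. The intermediate levels may come from a share of cells or of alleles, which a bulk library cannot tell apart.

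Some calls were not independent of each other. At 65 of the 652 CpGs the depth was exactly 2 times that of a CpG within 100 bp in both libraries, and the methylated calls were even in both libraries at 95.4% of these against 36.6% of the rest. With the calls at such CpGs halved, 188 non-site CpGs were called higher and 70 lower, against 0.582% and 43.6% of the table. With the calls halved at every CpG, the counts were 136 and 37, and the shares of the table were 0.245% and 30.7%. Neighbouring CpGs often had the same depth, and how many of their calls came from the same fragments was not tested, so that called CpGs cannot be counted as separate observations.

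The differences fell into 3 stretches along the cluster. From the start of the interval to the end of Hoxb8, 292 CpGs averaged 16.6% in Dnmt1+/+ (pooled interval 11.4 to 12.5%) and 5.62% in Dnmt1-/- MEFs (3.91 to 4.57%), with 1 CpG called higher and 65 lower. From there to the end of Hoxb2, 336 CpGs averaged 8.03% (8.34 to 9.12%) and 35.7% (34.8 to 36.2%), with 188 called higher and 6 lower. At Hoxb1, 24 CpGs averaged 29.9% (28.9 to 34.0%) and 15.9% (12.3 to 16.4%), with none called higher and 8 lower. The limits of the stretches were set at gene ends with the values known. In order, the shares called lower were 22.3%, 1.79% and 33.3%, each under the 44.2% of the non-site CpGs of the table. The shares called higher were 0.342%, 56.0% and 0%, against 0.635% of the table. A pooled value can lie outside its mean because deeper CpGs weigh more in it.

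**Figure D2:**
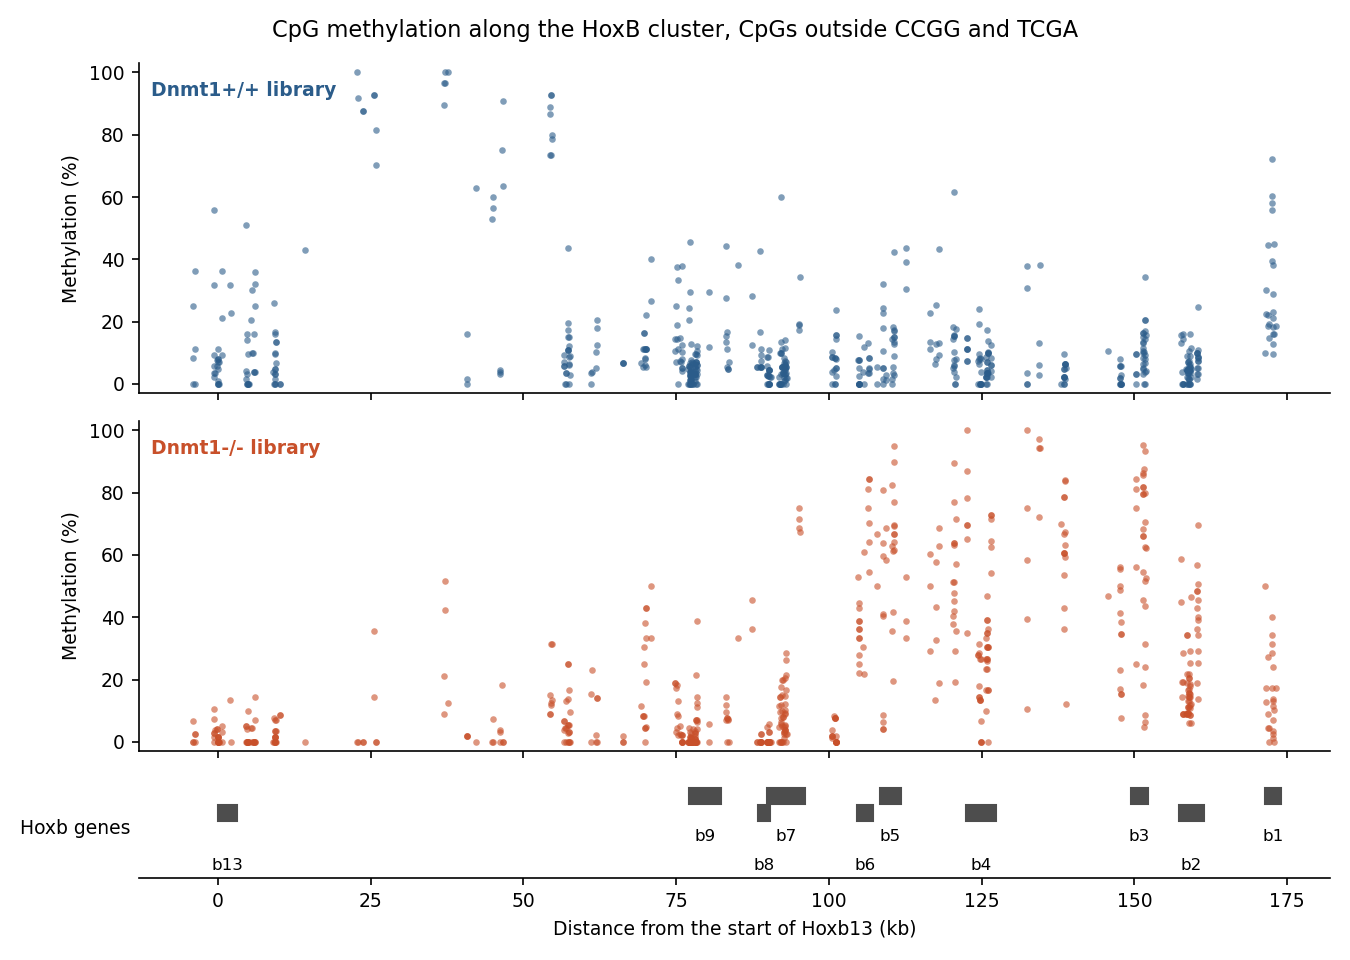
Methylation (y axis, %) of each non-site CpG of the cluster against its distance from the start of Hoxb13 (x axis, kb), for the Dnmt1+/+ library (top, blue) and the Dnmt1-/- library (middle, orange), with the 10 genes as bars (bottom). Dnmt1-/- values above 40% crowd the part from Hoxb6 to Hoxb2, where the Dnmt1+/+ values are mostly under 20%, whereas between Hoxb13 and Hoxb9 the highest values are those of Dnmt1+/+.

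The longest span with higher calls and no lower call ran from 96160456 in Hoxb6 to 96216038 in Hoxb2, 55.6 kb. It was picked after its values were seen, so its counts are a description. Within it 266 CpGs averaged 8.23% and 42.3%, 179 were called higher, and the 87 called neither way averaged 8.17% and 17.8%. In Dnmt1-/- MEFs 26 of the 266 CpGs were at 80% or more, 72 at 20% or less and 168 in between. With all calls halved, 129 of the 266 were called higher and none lower.

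The calls are also given by the Dnmt1+/+ level, which is part of the difference that was called, so that the split itself favours 1 direction and its counts are a description. Of the 553 CpGs at 20% or less in Dnmt1+/+, 177 were called higher and 26 lower, and their means were 6.35% and 21.2%. Across the table such CpGs averaged 3.06% and 2.06%, with 1.05% called higher and 2.83% called lower. The 18 CpGs at 80% or more in Dnmt1+/+ averaged 91.6% and 14.5%, and each was called lower, against 88.2% of such CpGs in the table. All 18 lay between Hoxb13 and Hoxb9. Over the cluster the CpGs called higher averaged 8.43% and 53.6%, and those called lower 45.2% and 6.78%.

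Hoxb13, the gene of the cluster used furthest towards the tail, lies apart from the others. Its 23 promoter CpGs, within 1 kb of the annotated start, averaged 10.4% in Dnmt1+/+ (9.68 to 12.5%) and 2.25% in Dnmt1-/- MEFs (1.66 to 3.06%), with 9 called lower. Within 500 bp of the start the means were 4.58% and 1.29%. The 11 CpGs of the gene itself averaged 12.4% and 2.10%. Between Hoxb13 and Hoxb9, 152 CpGs averaged 24.0% and 7.79%, and 43 of them were called lower (28.3%, against 44.2% of the table) and none higher. This interval includes the only run of at least 5 neighbouring CpGs all called lower, at chr11:96109929-96110271 over the processed pseudogene Gm11539, where 8 CpGs averaged 83.3% (76.4 to 86.3%) and 16.6% (10.4 to 20.2%). The start of the lincRNA Gm11538 was at 7.02% and 2.89% over 19 CpGs. The start of Gm53, annotated as protein coding, had 23 CpGs at 9.73% and 6.73%, with 3 called lower.

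The bodies of Hoxb9 and Hoxb8, genes which act in the trunk, had low methylation in Dnmt1-/- MEFs. The 65 CpGs within Hoxb9 averaged 6.38% (4.52 to 5.74%) and 2.62% (2.26 to 3.18%), with 9 called lower. One CpG went the other way, in the Hoxb9 intron at 96134078, from 4 methylated of 65 calls (6.15%) to 28 of 72 (38.9%). It was the only non-site CpG called higher before Hoxb7. In Hoxb8 29 CpGs averaged 6.03% (5.36 to 8.09%) and 0.760% (0.375 to 1.35%). The 10 CpGs in the homeobox exon of Hoxb8 averaged 4.49% and 0.488%. Only 2 non-site CpGs of Hoxb8 passed the test, both lower, and 1 CpG in an enzyme site was called higher. The DNA before Hoxb8 was more methylated: 15 CpGs between Hoxb9 and Hoxb8 averaged 16.0% (16.5 to 22.8%) and 12.5% (10.8 to 16.8%), up to 45.5% in Dnmt1-/- MEFs, with 1 called lower. The 4 CpGs in the 1 kb before the start of Hoxb8 averaged 12.9% and 20.5%, with none called. The 13 promoter CpGs of Hoxb8 averaged 12.4% and 6.66%, and within 500 bp of the start 10.9% and 0.433%.

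Hoxb7, whose product patterns the trunk, held both kinds of value. Its first coding exon averaged 4.60% (4.48 to 6.75%) and 7.59% (6.12 to 8.98%) over 15 CpGs, intervals that overlapped, with 2 called higher and 1 lower. Its last coding exon had 4 CpGs, all called higher: 18.97 to 68.8%, 19.3 to 71.4%, 17.2 to 75% and 34.5 to 67.2% from Dnmt1+/+ to Dnmt1-/- MEFs. The annotated start of the transcript used for Hoxb7 lies inside Hoxb8, and 22 CpGs within 1 kb of it averaged 3.20% and 0.785% with none called. Within 1 kb of the start codon 46 CpGs averaged 5.87% and 8.68%, so the direction at the Hoxb7 promoter depends on which start is used. Past the end of Hoxb7 levels were low again: 18 CpGs between Hoxb7 and Hoxb6 averaged 7.97% and 2.88%. Of these, 4 CpGs at 96156822 to 96156843 were called lower, from between 14.5 and 23.7% to 0 methylated calls at depths of 55 to 112. After 1 more CpG called neither way, the next measured non-site CpG, at 96160456 in Hoxb6, was called higher (7.69% against 52.8%).

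Hoxb6 was the first gene body of the cluster with a higher level in Dnmt1-/- MEFs at each of its CpGs. Its 22 CpGs averaged 4.95% (4.57 to 6.98%) and 48.1% (54.9 to 60.5%), and 19 were called higher and none lower. No CpG of Hoxb6 was under 21.7% in Dnmt1-/- or over 15.4% in Dnmt1+/+ MEFs, so the 2 libraries did not overlap at this gene. The 6 CpGs in the first coding exon averaged 1.28% and 34.3%, less than the 7 in the homeobox exon at 6.69% and 73.4%. The most significant CpGs of the whole cluster were here, at 96162125 and 96162129, each with 14 of 168 calls methylated against 108 of 128 (8.33% against 84.4%, Fisher's exact test, adjusted p = 9.38e-41). Both had double the depth of neighbouring CpGs, so that this p may be too small.

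Hoxb5 was also higher in Dnmt1-/- MEFs over most of its CpGs. Its 26 CpGs averaged 12.0% (9.39 to 12.7%) and 53.8% (51.3 to 57.1%), with 19 called higher. Dnmt1-/- levels ran from 4.26 to 94.9%. In the coding part of the homeobox exon 9 of 9 CpGs were called higher, with means of 16.1% and 73.2%. The 11 promoter CpGs averaged 11.4% and 38.7%, and 6 were called higher. Between Hoxb5 and Hoxb4, 30 CpGs averaged 16.3% (16.0 to 19.03%) and 48.2% (47.9 to 52.1%). These included the longest of the runs of CpGs all called higher, 17 CpGs over 494 bp at chr11:96175921-96176414, which overlapped no annotated exon and averaged 12.3% and 52.1%.

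Hoxb4, which is known for its role in blood stem cells, differed between its parts. Over the whole gene 51 CpGs averaged 6.69% (6.41 to 8.60%) and 34.6% (36.9 to 41.4%), with 30 called higher and none lower. The 13 CpGs of the first coding exon averaged 6.78% and 15.4%, and the 19 of the homeobox exon 5.18% and 29.8%. The 18 CpGs in noncoding exonic sequence averaged 8.60% (6.23 to 10.02%) and 55.1% (58.5 to 65.6%). Among them were 6 CpGs near the end of the gene, at chr11:96182101-96182134, where 2.08 to 12.5% in Dnmt1+/+ stood against 54.2 to 72.9% in Dnmt1-/- MEFs, at depths of 48 to 96. Of these exonic parts the first coding exon was the least methylated in Dnmt1-/- MEFs. Within 1 kb of the start codon 16 CpGs averaged 5.97% and 16.4%, against 11.1% and 72.0% over 7 CpGs around the annotated transcript start.

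Between Hoxb4 and Hoxb3 and within Hoxb3 the means in Dnmt1-/- MEFs were among the highest of the cluster. The 39 CpGs between the transcripts used for these genes averaged 6.07% (5.82 to 7.96%) and 54.0% (53.9 to 59.0%), and 32 were called higher. The runs at 96194056 (14 CpGs) and 96203252 (5 CpGs) lie in introns of longer Hoxb3 transcripts, so this interval is not wholly intergenic. Besides the stretch printed above the 39 CpGs included 4 at 96190083 to 96190093. These rose from between 2.94 and 38.2% to between 72.2 and 97.2%. Within Hoxb3 32 CpGs averaged 10.2% (9.24 to 12.0%) and 59.7% (54.7 to 59.9%), and 26 were called higher. Both coding exons of Hoxb3 were methylated in Dnmt1-/- MEFs. The first had 5 CpGs, all called higher, at 5.16% and 64.4%, and the homeobox exon 27 CpGs at 11.1% and 58.8%, 21 of them called higher.

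Hoxb2, a gene of hindbrain patterning, had smaller differences. Its 64 CpGs averaged 5.80% (5.51 to 6.91%) and 22.6% (22.2 to 24.6%), and 28 were called higher. The homeobox exon had 37 coding CpGs at 4.84% (4.001 to 5.59%) and 16.4% (14.5 to 17.1%), with 12 called higher. Of the noncoding parts, the exonic one was the more methylated. Noncoding exonic sequence held 15 CpGs at 8.29% (7.43 to 10.3%) and 40.0% (38.1 to 43.4%), with 14 called higher. The 8 intronic CpGs averaged 4.38% and 12.8% with none called. Median depth in Dnmt1-/- MEFs was 11 at the intronic and 79 at the noncoding exonic CpGs, so the numbers called cannot be compared directly. These exonic CpGs include both runs at the far end of the span of higher calls, chr11:96215887-96215954 and chr11:96215980-96216038, with 7 CpGs each, at 6.90 against 40.1% and at 10.1 against 43.5%. No non-site CpG was measured between Hoxb3 and Hoxb2 or between Hoxb2 and Hoxb1, so where the higher values end is known only to within this gap.

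Hoxb1, first of the cluster to be used in the embryo, went the other way from Hoxb2. Of its 24 CpGs 8 were called lower (33.3%, against 44.2% of the table) and none higher. In Dnmt1+/+ MEFs its level was above that of the other gene bodies, with a range of 9.68 to 72.1%. The 8 promoter CpGs averaged 22.7% (21.0 to 29.6%) and 15.7% (11.5 to 18.9%), and 1 was called lower. The 7 promoter CpGs with a depth of at least 20 averaged 24.6% and 10.8%, and are the same 7 CpGs as those of the first coding exon. The 13 CpGs of the homeobox exon averaged 35.0% and 17.6%, with 6 of these called lower.

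**Figure D3:**
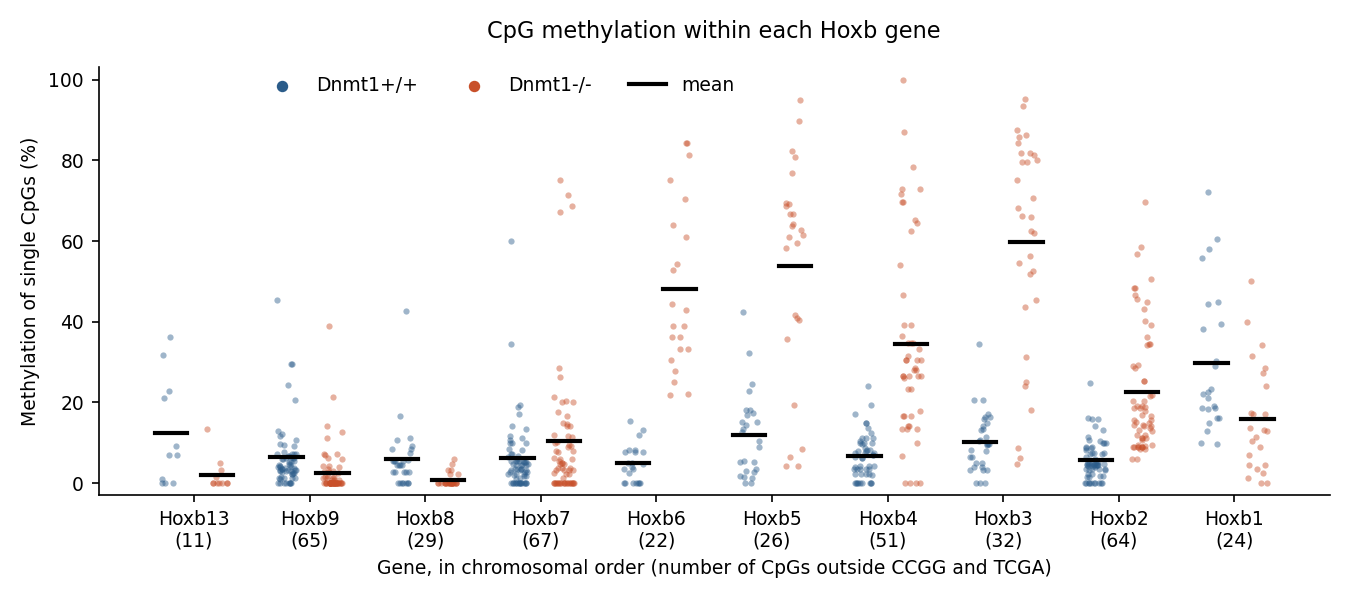
Methylation (y axis, %) of every non-site CpG inside each gene (x axis, in chromosomal order, number of CpGs in parentheses), in Dnmt1+/+ (blue) and Dnmt1-/- (orange) MEFs, with the mean as a black line. The Dnmt1-/- mean is the higher one from Hoxb7 to Hoxb2, most of all in Hoxb3 (59.7% against 10.2%), and the lower one in Hoxb13, Hoxb9, Hoxb8 and Hoxb1.

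Set in order by the Dnmt1-/- mean, the gene bodies ran from Hoxb3 (59.7%), Hoxb5 (53.8%) and Hoxb6 (48.1%) through Hoxb4 (34.6%), Hoxb2 (22.6%), Hoxb1 (15.9%) and Hoxb7 (10.4%) to Hoxb9 (2.62%), Hoxb13 (2.10%) and Hoxb8 (0.760%). The Hoxb7 value includes CpGs that lie inside Hoxb8, and without them 52 CpGs of Hoxb7 averaged 13.1%. The pooled intervals of Hoxb3, Hoxb5 and Hoxb6 overlapped, as did those of Hoxb1 with Hoxb7 and of Hoxb13 with Hoxb9 and Hoxb8. In Dnmt1+/+ MEFs the order was another: Hoxb1 was highest at 29.9%, and the other 9 lay between 4.95% in Hoxb6 and 12.4% in Hoxb13.

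In the coding sequence the homeobox exon was more methylated in Dnmt1-/- MEFs than the first coding exon in Hoxb7, Hoxb6 and Hoxb4. It was less methylated in Hoxb2. The pooled intervals did not overlap in these 4 genes. They may be too narrow, since neighbouring CpGs can share fragments, so the order of the exons is a description and was not tested. In Hoxb5, Hoxb3, Hoxb1 and Hoxb8 the intervals of both exons overlapped. The Hoxb5 first exon rests on 2 CpGs, at 2.11% and 63.5%, and the Hoxb2 first exon on 4, at 8.24% and 34.2%. Hoxb13 and Hoxb9 are left out here, since their last exons had 1 and 2 CpGs.

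**Figure D4:**
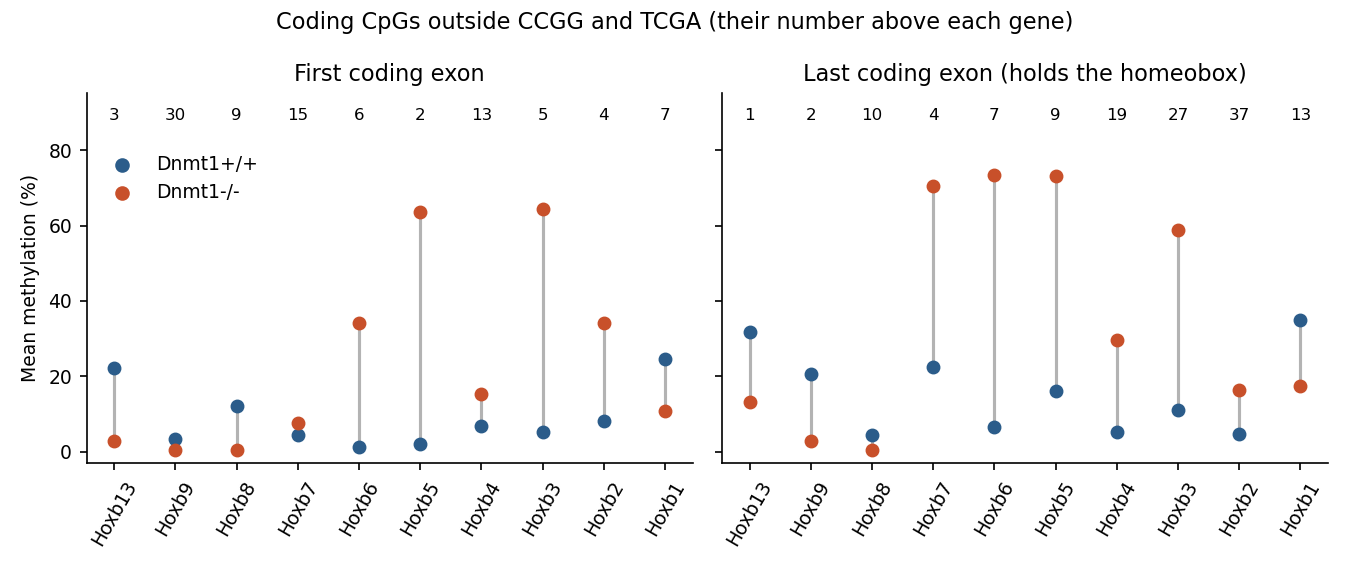
Mean methylation (y axis, %) of the coding non-site CpGs in the first (left) and last (right) coding exon of each gene (x axis), in Dnmt1+/+ (blue) and Dnmt1-/- (orange) MEFs, with the number of CpGs above and a grey line joining the 2 libraries. In the last exon the widest gap is in Hoxb6, 6.69% against 73.4%.

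Counted by promoter, 4 of the 10 genes were higher in Dnmt1-/- MEFs by 25 percentage points or more: Hoxb6, Hoxb5, Hoxb4 and Hoxb3. Of 12559 promoters of protein-coding genes treated alike, 0.231% were higher and 7.64% lower by as much. Hoxb6, Hoxb4, Hoxb3, Hoxb2 and Hoxb1 had no measured non-site CpG in the 1 kb before the start, and Hoxb5 had 2. The promoter values of these genes therefore come mostly from CpGs inside them. The 5 promoter CpGs of Hoxb3 are those of its first coding exon. Hoxb5, at 27.3 points, was under the 25-point limit over all CpGs (24.1 points), with calls pooled (23.1) and at a depth of at least 20 (20.96). Hoxb4, at 60.9 points, was at 10.4 around the start codon. At Hoxb6 12 promoter CpGs averaged 3.85% (2.45 to 5.997%) and 36.0% (31.6 to 40.6%), with 10 called higher. At Hoxb2 9 promoter CpGs averaged 7.03% (5.29 to 12.7%) and 23.5% (22.4 to 35.7%), with 2 called higher. The promoters of Hoxb13, Hoxb9, Hoxb8, Hoxb7 and Hoxb1 had lower means in Dnmt1-/- MEFs, and no promoter was lower by 25 points.

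The antisense transcript 0610040B09Rik starts in the Hoxb5 second exon, and the 15 CpGs around its start averaged 12.6% (9.63 to 14.7%) and 64.1% (63.1 to 71.0%), with 13 called higher. At the start of the antisense transcript Gm11536, in the Hoxb3 intron, 13 CpGs averaged 2.46% and 33.7%, and 9 were called higher. Of Hoxb3os, antisense to Hoxb3, the transcript used here has 27 CpGs, which are those of the Hoxb3 homeobox exon, and another transcript reaches into Hoxb2. The cluster also holds a pair of microRNAs, small RNAs that repress target messages by pairing through their seed, bases 2 to 8. They are printed because their starts lie in differing parts of the cluster, with the seed in capitals, from RefSeq (GRCm38.p6).
mmu-miR-10a-5p: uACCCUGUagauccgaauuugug
mmu-miR-196a-5p: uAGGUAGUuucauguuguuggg
Their seeds differ. The 7 CpGs within 1 kb of Mir10a are the 7 of the Hoxb4 promoter, 11.1% (7.38 to 16.4%) and 72.0% (64.7 to 78.4%). At Mir196a-1, between Hoxb13 and Hoxb9, 9 CpGs averaged 16.1% (12.3 to 22.2%) and 29.8% (23.1 to 36.1%) and none passed the test in either direction. No non-site CpG was measured inside either microRNA gene. A CpG in a CCGG site at 96126483, inside Mir196a-1, had 56.7% in Dnmt1+/+ and 77.8% in Dnmt1-/- MEFs and was called neither way.

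Runs of at least 5 neighbouring non-site CpGs that were all called the same way, no more than 200 bp apart, described the differences at finer scale. There were 13 runs of higher calls with 108 CpGs in all, of 28 to 494 bp. Every one lay between Hoxb6 and Hoxb2, with run means of 1.28 to 14.9% in Dnmt1+/+ MEFs against 34.3 to 78.3% in Dnmt1-/- MEFs. Coding sequence was touched by 6 of them. In 1 kb tiles with at least 5 non-site CpGs, 16 of 46 tiles of the cluster were higher by 25 points or more (0.334% of the tiles of the table) and 1 was lower (48.1% of the table). The 16 tiles fell among the 21 tiles from 96160001 to 96217000, and made up 10.5% of the 152 higher tiles of the table. Among those between the transcripts used for neighbouring genes, the tile at 96188001 to 96189000 averaged 14.4% and 56.7% over 5 CpGs.

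By local CpG density, the direction followed the stretch of the cluster. From Hoxb13 to Hoxb8, the 124 CpGs with fewer than 10 genomic CpGs within 100 bp averaged 27.4% and 7.14%, the 113 with 10 to 19 averaged 9.80% and 5.51%, and the 55 with 20 or more averaged 6.26% and 2.42%. Between the ends of Hoxb8 and Hoxb2, the 60 CpGs of the lowest density averaged 9.17% and 38.9%, the 213 with 10 to 19 averaged 8.57% and 35.9%, and the 63 with 20 or more averaged 5.13% and 31.7%. The shares called higher were 50%, 57.7% and 55.6%. At the site CpGs of the same part, where values start from a high reading, 133 CpGs averaged 54.3% and 64.7%, and 25 were called higher and none lower, against 0.245% and 43.1% of the site CpGs of the table.

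At the edges of the interval the nearest measured CpGs lay in enzyme sites. The first inside, at 96051125, had 41.7% and 5%, and the one before it, outside at 96039716, had 68.1% and 75%. The last inside, at 96228801, had 31.2% and 30.4%, and the next one outside, at 96235619, had 9.09% of 11 calls and 47.1% of 17.

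The other Hox clusters, each taken with 20 kb on either side, are set beside HoxB without a test. The HoxB interval reaches less far past its end genes, so that the intervals are not alike. Of their non-site CpGs 21.6% were called higher in HoxA (171 of 792), 26.1% in HoxC (134 of 514) and 16.7% in HoxD (147 of 881), against 29.0% in HoxB. The shares called lower were 14.3%, 9.14% and 9.76%, against 12.1% in HoxB. Means went from 12.7 to 16.2% in HoxA, from 12.1 to 21.2% in HoxC and from 12.6 to 17.5% in HoxD.

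**Figure D5:**
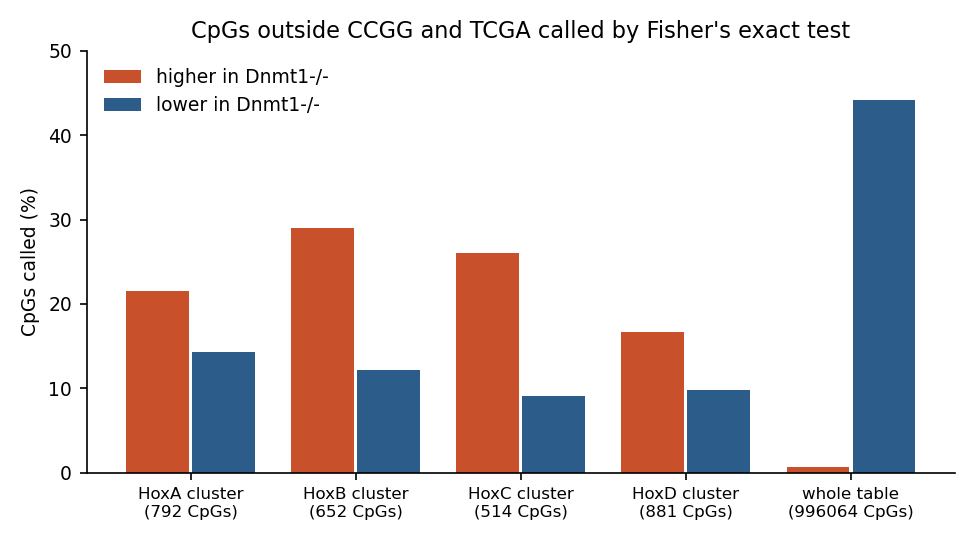
Share of non-site CpGs called higher (orange) or lower (blue) in Dnmt1-/- MEFs (y axis, %) in the 4 Hox clusters and in the whole table, with the number of CpGs under each pair of bars. The higher share is the larger in all 4 clusters, 29.0% against 12.1% in HoxB, and the lower share is the larger in the whole table, 44.2% against 0.635%.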

How the data were processed

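The 2 RRBS libraries, 1 of Dnmt1+/+ and 1 of Dnmt1-/- MEFs, were each analysed as 1 sample. They were prepared and mapped by a sequencing provider, and the submitters' processing notes name Bismark, with no version, and mm9. The authors deposited, for each CpG, the depth as a count of methylation calls and the percent of methylated calls, and removed CpGs with fewer than 10 calls in either library. The deposited starts count from 0, since all 1790826 are the C of a CG in NCBIM37 only when read so. Positions here are 1-based. Percent times depth was whole within 1e-06 at 100% of CpGs and gave the methylated calls.

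Each CpG was tested with Fisher's exact test (two-sided) over the whole table with Benjamini-Hochberg adjustment. Genes came from GENCODE vM1, using the protein-coding transcript with the longest coding sequence and, among those, the shortest span. The named genes were the 10 Hoxb genes and the other annotated genes of the interval. A CpG with 0 methylated calls allows a level of up to 3 calls over its depth, 30% at a depth of 10. The members, lists and rules, and the separation of CpGs in CCGG and TCGA, were chosen with earlier results of these data known. The test was checked on simulated data, where power was lower at CpGs with fewer than 20 calls. Software was numba 0.67.0, scipy 1.17.1, matplotlib 3.10.9, pandas 2.3.3 and numpy 2.4.6 under python 3.11.15. Alternatives covered depth, thresholds, sites, thinning, tile size and promoter windows. Expression and histone data of the study were not used here.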

Additional observations from a re-analysis of the deposited data

How the results depend on the processing

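No paired analysis was possible because there was a single library of each genotype. The count of CpGs called higher in the cluster, 218 over all CpGs, was between 174 and 216 with a difference of at least 25 points, a threshold of 0.01 on the adjusted p, a depth of at least 20, the site CpGs left out, the deepest CpGs left out or the calls at CpGs of double depth halved. It was 143 with every CpG's calls halved and 38 with each CpG thinned to 10 calls, while the share of all CpGs of the table went from 0.462% to 0.144% and 0.0330%. The count called lower, 97, was 64 with an adjusted p under 0.01, 62 with at least 25 points, 40 with every CpG's calls halved and 22 with thinning, while the table went from 43.7% to 36.0%, 40.3%, 25.7% and 16.6%. The 2 halving alternatives and the start-codon window were added after the data were seen. The mean difference between libraries at non-site CpGs, 8.80 points, was 5.91 over all CpGs, 10.4 with calls pooled and 12.2 at a depth of at least 20. Tiles higher by 25 points, 16 of 46, were 9 of 26 with 5 kb tiles, 7 of 25 with at least 10 CpGs and 8 of 46 at 50 points, and tiles lower, 1, were 2 with 5 kb tiles, 5 of 63 over all CpGs and 0 with at least 10 CpGs. Promoters higher by 25 points were 4 of 10, 3 of 10 over all CpGs, with calls pooled, at a depth of at least 20 or around the start codon, and 2 of the 7 that had enough CpGs with windows of 500 bp either side. The difference at the Hoxb7 promoter, -2.42 points, was 2.81 around the start codon, and this was the only reversal among 47 recomputed promoter and 32 recomputed gene or intergenic values. Fewer calls entered under halving and thinning, and for the other changes the cause was not tested. Small differences may be missed at depths of 10 to 19, but the simulated data held only a large difference, so this was not tested.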
